A study of Mus musculus with 12 samples.

Results

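Homeobox transcription factor genes were followed across the postnatal cerebellum of euploid and Ts1Cje mice. The members were all probe sets whose single gene symbol belongs to the Hox, Lhx, Otx, En, Meis, Pbx, Shox2, Irx, Dlx, Pou, Nkx, Msx or sine oculis (Six2 to Six6) families by name. This rule used no measured value, but it was chosen with earlier results of these data known. It took 100 probe sets of 80 genes, out of 8252 genes with a single symbol on the array. The Hox clusters gave 32 genes, Pou 9, Dlx 8, Nkx 8, Lhx 6, the sine oculis family 5, Meis 3, Msx 3, En 2, Pbx 2, Irx 1 and Shox2 1, and no Otx probe set carried a single symbol. Of the 80 genes, 76 code for homeodomain proteins. Another 3 (Dlx1as, Dlx6os2 and Hoxa11os) are noncoding RNAs of the Dlx and Hox loci, and Pou2af1 codes for a coactivator that has no homeodomain.

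Ts1Cje mice carry a segmental trisomy of chromosome 16 and are a mouse model of Down syndrome, and euploid mice were the controls. RNA was taken from cerebella of newborn mice (P0) and of mice aged 15 and 30 days (P15 and P30) and was pooled by genotype and stage. The 6 pools held RNA of 3 cerebella each, except the euploid P30 pool with 2. Each pool was hybridised to 2 Affymetrix arrays, so the 12 arrays hold 1 pool per genotype and stage, and both arrays of a pool share their animals. None of the 80 genes lies on chromosome 16 (0 genes), so no member is itself triplicated.

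Homeobox proteins bind DNA through the homeodomain and give neurons their regional and cellular identity. Hox genes set position along the hindbrain and spinal cord. The cerebellum forms from the most anterior hindbrain, in front of the Hox-expressing segments and under the influence of the engrailed genes, whereas Dlx genes are best known from forebrain interneurons. Pbx and Meis proteins bind DNA together with Hox proteins. LIM-homeodomain and POU factors mark neuronal types, among them Lhx1 and Lhx5 in Purkinje cells.

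Signals are linear MAS5 intensities, scaled to a common level on each array, with array medians of 30.4 to 36.2. A mean signal of at least 20.1 over the 12 arrays was asked for before testing. This left 30 of the 100 member probe sets, from 28 genes: 8 Hox genes, Pou3f2, Pou3f3, Pou6f1 and Pou2f3, Meis1, Meis2 and Meis3, En1 and En2, Lhx1 and Lhx5, Msx1 and Msx3, Nkx2-2 and Nkx6-2, Pbx2, Pbx3 (3 probe sets), Irx3, Shox2 and Six2. The other 52 genes had no probe set past it, including all 8 Dlx genes. Since the filter is on a mean, a member bright at 1 stage alone could pass it, and the counts over tested members below describe these and not all 80 genes. The 70 dim probe sets read between 0.1 and 77.5. Cerebellar marker genes (10 on the array) summed to 3666 to 4353 on the P0 arrays and to 15108 to 20960 at P15 and P30. The P0 sum was mostly Zic1 (2042.5 to 2563.8). The Purkinje cell gene Calb1 read 72.3 to 93.2 at P0, and Gabra6, a gene of mature granule cells, 0.4 to 2.6 at P0 and at least 1131.5 later. The Ts1Cje P15 pool stood apart in Xist, an RNA made in cells with an inactive X, with signals of 77.6 and 105.6 against 1.4 to 6.7 on the other arrays. Genotype and this Xist difference cannot be told apart at that stage. The actin 3' to 5' ratio, a sign of RNA integrity, was 1.55 and 1.67 in the Ts1Cje P30 pool and 1.13 to 1.43 elsewhere. The GAPDH ratio was lowest in the euploid P0 pool (0.841 and 0.862) and highest in the Ts1Cje P0 pool (1.07 and 0.987), and its part in the P0 differences below was not tested.

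**Figure D1:**
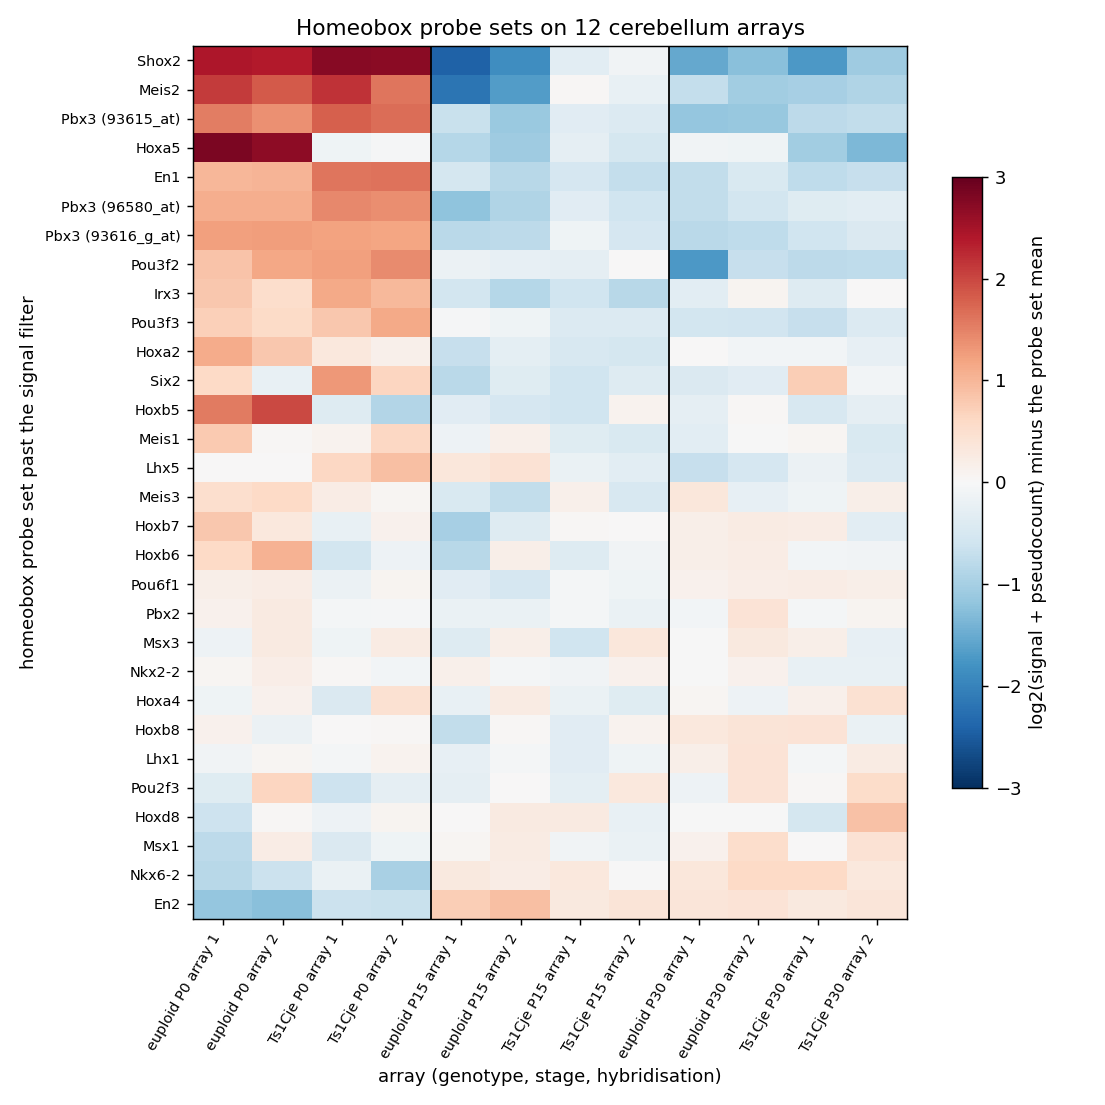
Heat map of the 30 homeobox probe sets past the signal filter (rows) on the 12 arrays (columns, ordered by stage and genotype). Colour is log2(signal + 4.6) minus the mean of the probe set. Shox2, Meis2, Pbx3 and En1 are high on all 4 P0 arrays, Hoxa5 is high on the euploid P0 arrays alone, and En2 is low on all P0 arrays.

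From P0 to P15 the tested homeobox genes moved down more often than up in both genotypes together. Of the 30 probe sets, 12 fell and 2 rose (46.7%), beside 28.0% of all 7453 tested probe sets, where 14.4% fell and 13.6% rose. Counted by gene, 10 of 28 fell and 2 rose. The median log2 difference was -0.60 over the 30 probe sets and -0.033 over all tested probe sets. The test was limma on log2(signal + 4.6) with genotype and stage as terms, the pool as replicate and Benjamini-Hochberg adjustment over all tested probe sets. In bulk tissue, fewer cells of a type and less RNA per cell cannot be told apart.

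Shox2 fell furthest among the tested members. This paired-related homeobox factor is known from limb and heart pacemaker development and lies at chr3:66971723-66981771. Its main probe set read 297.8 and 288.5 in the euploid P0 pool and 370.1 and 361.0 in the Ts1Cje P0 pool. At P15 it read 5.9 and 10.8 in euploid and 40.4 and 47.8 in Ts1Cje, and at P30 14.9 and 18.9 in euploid and 12.5 and 22.4 in Ts1Cje. All 4 P0 arrays lay far above the later ones, and the Ts1Cje P15 pool kept an intermediate signal. The fall from P0 to P15 was -3.74 ± 0.40 on the log2 scale (SE, 6 pools, limma adjusted p = 0.00033). Its dimmer probe set, under the signal filter, gave -2.46 ± 0.24 when all 12422 probe sets were tested (limma adjusted p = 0.000559).

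The TALE cofactors of Hox proteins, Meis and Pbx, split by gene. Meis2 (chr2:115861264-116067537) read 108.4 and 89.9 in euploid and 113.3 and 75.1 in Ts1Cje at P0. It read 1.2 and 3.6 in euploid and 22.4 and 18.1 in Ts1Cje at P15, then 11.5 and 8.1 in euploid and 8.7 and 9.6 in Ts1Cje at P30. Again the P0 arrays stood alone, and the genotypes were apart at P15 with euploid lower. The fall to P15 was -2.94 ± 0.45 (limma adjusted p = 0.0018). Pbx3 (chr2:34171457-34372045) fell on all 3 of its probe sets (-2.22 ± 0.15, -2.01 ± 0.17 and -1.77 ± 0.18, limma adjusted p = 3.75e-05, 0.000126 and 0.000262). The brightest of these read 606.5 and 536.6 in euploid and 728.9 and 665.8 in Ts1Cje at P0, and 128.8 and 92.5 against 163.2 and 153.7 at P15. At P30 it read 89.6 and 90.8 in euploid and 117.0 and 121.3 in Ts1Cje. On this probe set the Ts1Cje arrays lay above the euploid arrays at each stage. Another Pbx3 probe set was slightly lower in Ts1Cje at P0 (253.5 and 258.0 in euploid, 251.9 and 244.8 in Ts1Cje). Meis1 (-0.59, limma adjusted p = 0.061), Meis3 (-0.73, adjusted p = 0.0721) and Pbx2 (-0.25, adjusted p = 0.413) did not pass. Meis1 passed when eBayes was run without the trend (adjusted p = 0.0465), and Meis3 when the Ts1Cje P15 pool was left out (-1.05, adjusted p = 0.0354).

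The engrailed paralogues, which pattern the midbrain and cerebellum, moved in opposite directions. En1 (chr1:120602487-120607991) read 134.9 and 137.9 in euploid and 208.5 and 212.4 in Ts1Cje at P0, and between 34.9 and 46.3 on the later arrays. En2 (chr5:28165696-28172190) read 262.3 and 243.0 in euploid and 372.9 and 366.8 in Ts1Cje at P0. At P15 it read 982.4 and 1101.6 in euploid and 724.0 and 765.9 in Ts1Cje, and at P30 751.7 and 784.0 in euploid and 715.9 and 753.4 in Ts1Cje. No P0 array overlapped a later array for either gene. En1 fell by 1.96 ± 0.21 to P15 (limma adjusted p = 0.000353), and En2 rose by 1.51 ± 0.22 (adjusted p = 0.00146). Within stages, both genes were higher in the Ts1Cje P0 pool without overlap, and En2 was lower in the Ts1Cje P15 pool.

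Several POU and Iroquois genes were also highest at P0. Pou3f2 (Brn2, chr4:22482095-22488366), a factor of neural progenitors and migrating neurons, read 72.3 and 91.3 in euploid and 95.7 and 108.4 in Ts1Cje at P0. It read 33.3 and 31.1 against 30.5 and 38.2 at P15, and 8.2 and 21.7 against 20.2 and 20.4 at P30. Its signals were in 3 separate ranges by stage, with the genotypes overlapping at P15 and P30. It fell by 1.34 ± 0.20 to P15 (limma adjusted p = 0.00172) and by 2.16 ± 0.20 from P0 to P30 (adjusted p = 8.69e-05). Its close relative Pou3f3 (Brn1) read 70.6 to 105.8 on the P0 arrays, 33.2 to 45.0 at P15 and 26.7 to 33.3 at P30, and fell by 1.05 ± 0.21 to P15 (limma adjusted p = 0.00729), a call that ended when the Ts1Cje P0 pool was left out (-0.81, adjusted p = 0.0647). Irx3, which patterns the neural tube, read 79.1 to 124.9 at P0, 27.9 to 35.3 at P15 and 40.2 to 57.4 at P30, and fell by 1.56 ± 0.19 to P15 (limma adjusted p = 0.000734). Pou6f1, bright on all arrays at 104.6 to 176.4, gave -0.34 ± 0.18 (adjusted p = 0.197), and Pou2f3, known from skin and tuft cells, gave 0.09 ± 0.25 (adjusted p = 0.816).

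Six2, a factor of kidney and craniofacial mesenchyme (chr17:85662736-85688254), read 32.6 and 16.4 in euploid and 56.2 and 33.9 in Ts1Cje at P0, 9.4 and 14.4 against 11.6 and 14.1 at P15, and 13.5 and 14.7 against 36.6 and 18.7 at P30. The P15 arrays lay below all P0 arrays, the P30 arrays overlapped those of P0, and both P0 pools had arrays far from each other. Six2 gave -1.13 ± 0.27 from P0 to P15 (limma adjusted p = 0.0159), and this call ended without the Ts1Cje P0 pool (-0.94, adjusted p = 0.118), the Ts1Cje P15 pool (-0.79, adjusted p = 0.124) or hybridisation 1 (-0.59, adjusted p = 0.3). Nkx6-2, which acts in oligodendrocytes and myelination (chr7:139579376-139582797), rose: it read 13.6 to 26.8 on the P0 arrays, 30.9 to 39.6 at P15 and 39.6 to 49.7 at P30. Its rise to P15 was 0.86 ± 0.21 (limma adjusted p = 0.0162), a call that ended without the euploid P0 pool (0.75, adjusted p = 0.0793), the euploid P15 pool (0.77, adjusted p = 0.0945) or either hybridisation (0.91 and 0.80). Nkx2-2, another factor of ventral neural tube and oligodendrocytes, kept between 66.1 and 91.4 on all arrays and gave -0.023 ± 0.17 (adjusted p = 0.933).

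**Figure D2:**
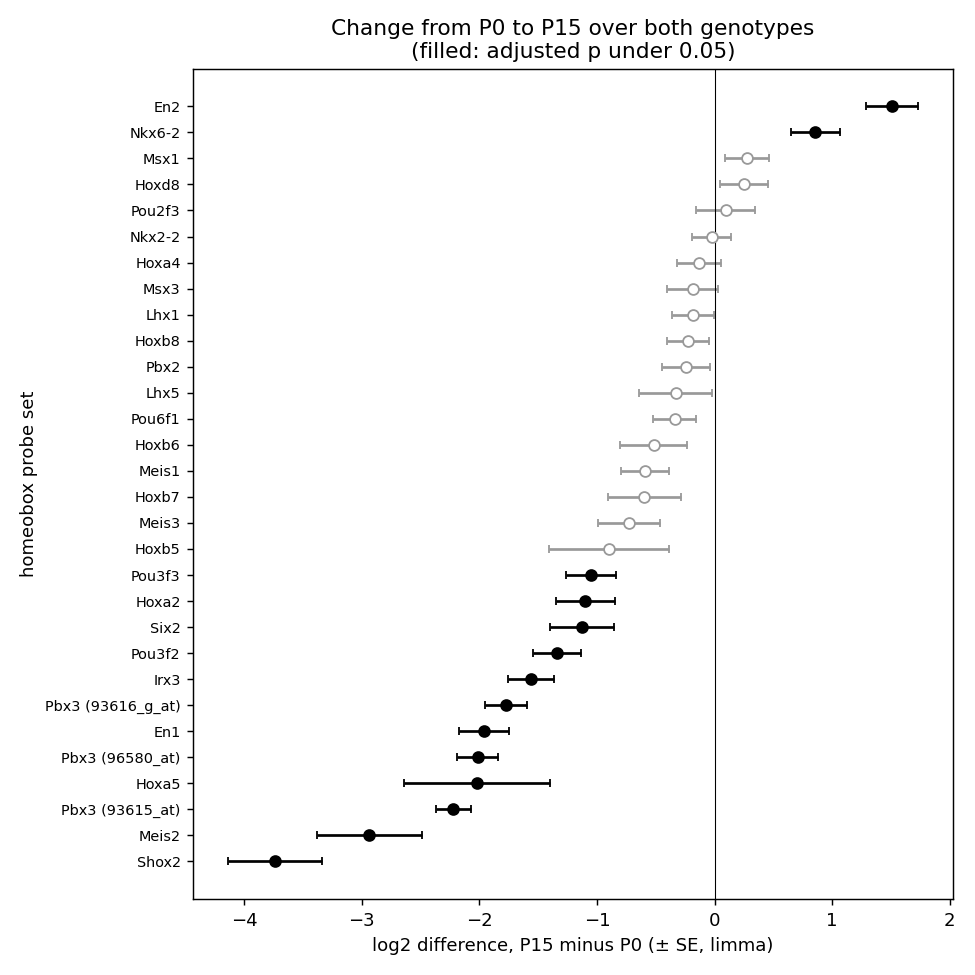
Log2 difference between P15 and P0 over both genotypes for the 30 tested homeobox probe sets (points, horizontal axis; bars are the limma SE; 6 pools). Filled points have an adjusted p under 0.05. The estimates run from -3.74 for Shox2 to 1.51 for En2, with 12 filled points below 0 and 2 above.

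The Purkinje cell LIM factors gave no stage call. Lhx1 read 43.2 to 75.3 over the 12 arrays and gave -0.19 ± 0.18 from P0 to P15 (limma adjusted p = 0.483). Lhx5 read 35.3 and 35.8 in euploid and 56.8 and 69.7 in Ts1Cje at P0, 45.4 and 48.9 against 29.9 and 27.2 at P15, and 20.1 and 23.5 against 30.8 and 25.4 at P30. The genotypes were apart at each stage, with Ts1Cje higher at P0 and P30 and lower at P15. Lhx5 gave -0.33 ± 0.31 to P15 (adjusted p = 0.48) and -0.83 ± 0.31 to P30 (adjusted p = 0.0672). The latter passed without the euploid P0 pool (-1.29, adjusted p = 0.0204), the euploid P15 pool (adjusted p = 0.0117) or the Ts1Cje P15 pool (adjusted p = 0.00939), and the former without the euploid P15 pool (-0.92, adjusted p = 0.0498).

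The remaining tested members were the Hox genes and the muscle-segment genes Msx1 and Msx3, which are factors of craniofacial and dorsal neural development. Msx1 and Msx3 gave 0.28 ± 0.19 and -0.18 ± 0.22 from P0 to P15 (limma adjusted p = 0.315 and 0.575).

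Some dim members also differed between P0 and P15. With no signal filter, 9 of the 70 probe sets under it passed (12.9%), 8 of them lower at P15, beside 16.5% of all 12422 probe sets, so the share was no higher than over the array. They were both Lhx9 probe sets, 1 each of Six3, Six4, Lhx8, Hoxa11, Pou3f4 and Shox2, all lower at P15, and Msx2, which was higher. Six4 (-0.81), Hoxa11 (-0.85) and Lhx8 (-1.29) had signals of at most 17.3 on these probe sets. Lhx9, a LIM factor of thalamic, midbrain and cerebellar nuclear neurons (chr1:138825186-138848839), read 39.4 and 32.6 in euploid and 38.3 and 40.4 in Ts1Cje at P0 and 0.2 to 1.9 on all 8 later arrays. The difference was -2.98 ± 0.21 (limma adjusted p = 0.000125 over 12422 probe sets). Pou3f4 (Brn4), a factor of the inner ear and forebrain on the X chromosome, read 36.9 to 42.4 at P0, 2.9 and 1.6 in euploid and 14.3 and 7.4 in Ts1Cje at P15, and 3.4 to 9.5 at P30 (-2.12 ± 0.39 to P15, adjusted p = 0.00888). Six3, a forebrain and eye factor, read 14.0 to 31.7 at P0 and 0.3 to 4.3 afterwards on its brighter probe set (-2.05 ± 0.25, adjusted p = 0.00143), while its other probe set stayed between 0.9 and 2.2. Msx2 went the other way, from 1.3 to 7.0 at P0 to 16.0 to 31.7 later (1.91 ± 0.31, adjusted p = 0.00537).

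On all 4 P0 arrays together, 15 of the 100 member probe sets (15%) read above each of the 8 later arrays, beside 10.7% of all probe sets, and 3 read below each of them, beside 8.4%. The 15 were probe sets of En1, Hoxa2, Irx3, Lhx9, Meis2, Pbx3, Pou3f1, Pou3f2, Pou3f3, Pou3f4, Shox2 and Six3, and the 3 were En2, Msx2 and Nkx6-2. Many, but not all, markers of the midbrain, thalamus and brainstem moved with them. The 7 brainstem marker genes on the array, of 15 listed, summed to 195.3 to 280.2 at P0, 49.3 to 116.3 at P15 and 86.2 to 134.6 at P30. The 9 midbrain and thalamus markers, of 12 listed, summed to 835.2 to 942.4 at P0, 544.4 to 675.7 at P15 and 658.8 to 821.5 at P30. Among them the serotonin transporter gene Slc6a4 read 69.6 to 116.1 at P0 and 1.1 to 18.3 later, and the midbrain transcription factor genes Gata3 and Tal1 read 58.5 to 128.9 and 52.5 to 82.2 at P0 and at most 10.9 later. Of the tested markers 6 of 7 midbrain and thalamus genes and 2 of 4 brainstem genes fell to P15 by the same test. Over all tested probe sets 14.4% fell. Prkcd, of the midbrain and thalamus list, rose (1.44 ± 0.15, limma adjusted p = 0.000288), from 102.1 to 116.6 at P0 to 281.2 to 404.2 later. The brainstem genes Th and Slc6a2 did not pass (-0.24 and -0.53, adjusted p = 0.591 and 0.492). None of the listed genes was at 0 on all arrays. The part of tissue next to the cerebellum in the P0 signals was not tested.

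From P0 to P30 falls again outnumbered rises among the tested members, but the share of members called was close to that of all probe sets. The comparison shares the P0 pools with the one above. Of 30 probe sets, 10 fell and 3 rose (43.3%), beside 39.0% of all tested probe sets, where 19.6% fell and 19.4% rose. Shox2 (-3.95 ± 0.40), Meis2 (-2.84 ± 0.45), Pbx3 (-2.55 ± 0.15 on the brightest probe set), Pou3f2, Hoxa5, En1, Pou3f3 and Irx3 fell, and En2 (1.28 ± 0.22), Nkx6-2 (1.12 ± 0.21) and Msx1 (0.55 ± 0.19) rose. The limma adjusted p-values of these calls ran from 8.68e-06 for Pbx3 to 0.0471 for Msx1. The Msx1 call ended without the euploid P0 pool (0.45), the euploid P30 pool (0.58), the Ts1Cje P0 pool (0.65) or the Ts1Cje P30 pool (0.53), with adjusted p-values of 0.191, 0.208, 0.0775 and 0.27. It also ended without either hybridisation (0.42 and 0.68), and Irx3 (-1.01 ± 0.19) did so without hybridisation 1 (-0.69, adjusted p = 0.0707). Meis1 (-0.58, adjusted p = 0.0523) passed without the euploid P15 pool (adjusted p = 0.0403) or the Ts1Cje P15 pool (adjusted p = 0.0361). With no signal filter, 6 of the 70 dim probe sets passed (8.57%), beside 23.8% of all 12422: Lhx9, Six3, Pou3f4, Shox2 and Hoxa3 lower, and Msx2 higher.

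Between P15 and P30 no tested member passed (0 of 30, beside 4.74% of all tested probe sets). At an unadjusted limma p under 0.05 were 4 of 30, beside 1612 of all 7453, so the members' share was no higher. Pou3f2 came nearest at -0.82 ± 0.20 (limma adjusted p = 0.0589). Single calls appeared under some other settings, among them Pou3f2 after quantile normalization (-0.94, adjusted p = 0.0397), Hoxb8 without hybridisation 2 (0.90, adjusted p = 0.028), Shox2 without the euploid P15 pool (-1.10, adjusted p = 0.0261), and Lhx5 without the Ts1Cje P15 pool (-1.08, adjusted p = 0.0476).

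Over the stages, no homeobox gene passed for genotype (0 of 30, beside 0.0% of all tested probe sets by limma). At an unadjusted p under 0.05 there were 4 probe sets, beside 2.91% of all tested probe sets. The smallest p-values belonged to Pbx3 (0.40 ± 0.12 and 0.41 ± 0.14 on separate probe sets, higher in Ts1Cje), Six2 (0.54 ± 0.22), Shox2 (0.75 ± 0.33) and Hoxa5 (-1.11 ± 0.51), all with a limma adjusted p of 1. For a genotype difference that changes steadily with postnatal day, likewise 0 of 30 passed, beside 0.0% of all. Hoxb5 alone had an unadjusted limma p under 0.05 (2.14 ± 0.69 over 30 days), beside 193 of all 7453 probe sets.

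At a single stage each genotype is 1 pool, so no test exists there, and a member was counted where the 4 arrays did not overlap by genotype and the difference was at least 2-fold on the log2(signal + 4.6) scale. The plot of within-stage differences by family shows that the members so counted changed from stage to stage. They were Hox genes at P0, Dlx genes with Shox2, Meis2 and Pou3f4 at P15, and Dlx4, Nkx1-2 and Hoxa5 at P30. Hoxa5 was counted at both P0 and P30.

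**Figure D3:**
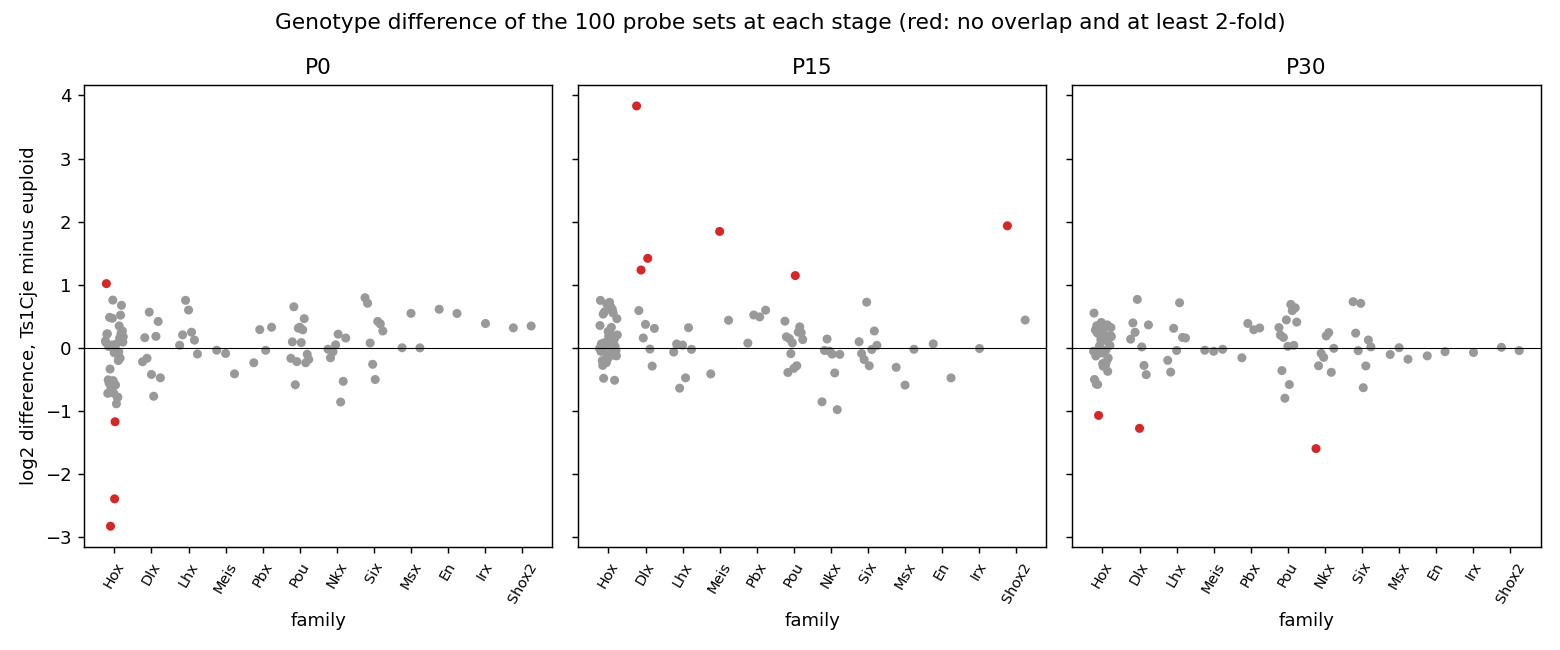
Ts1Cje minus euploid, as a log2 difference (vertical axis), for the 100 probe sets by family (horizontal axis) at P0, P15 and P30. Red points have no overlap between genotypes and at least a 2-fold difference: Hoxa5, Hoxb5 and Hoxb6 below 0 and Hoxa11os above 0 at P0, 6 genes above 0 at P15, and Dlx4, Nkx1-2 and Hoxa5 below 0 at P30.

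At P0, 3 members were lower in the Ts1Cje pool by this count (3.0%), beside 0.869% of all 12422 probe sets, and 1 was higher (1.0%), beside 1.01%. These 4 became 10 with a pseudocount of 1 and 2 with one of 16, the latter being Hoxa5 and Hoxb5. The shares of all probe sets at these other pseudocounts are not given here, for this or the later stages. The 3 lower members were Hox genes of the middle of the clusters. Hoxa5 (chr6:52201754-52204587) read 263.6 and 239.8 in the euploid P0 pool and 30.4 and 32.3 in the Ts1Cje P0 pool. At P15 it read 16.4 and 13.4 in euploid and 26.9 and 21.8 in Ts1Cje, and at P30 30.5 and 30.3 in euploid and 13.8 and 10.4 in Ts1Cje. Only the euploid P0 pool was high, and the Ts1Cje P0 pool lay near the later pools of either genotype. The difference at P0 was -2.83, or 7.12-fold. The annotated span of Hoxa3 (chr6:52169059-52213067) covers that of Hoxa5, and the Hoxa3 probe set itself stayed between 2.6 and 16.4.

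Hoxb5 (chr11:96303512-96306121) read 143.5 and 195.7 in the euploid P0 pool, 34.2 and 22.9 in the Ts1Cje P0 pool, 35.2 and 31.1 against 29.0 and 49.9 at P15, and 37.6 and 47.2 against 31.9 and 37.5 at P30. The euploid P0 pool again stood alone, 5.27-fold above Ts1Cje at P0, and the genotypes overlapped at P15 and P30. Its neighbour Hoxb6 (chr11:96292814-96301569) read 74.5 and 104.5 against 31.3 and 42.5 at P0, 24.9 and 54.7 against 35.9 and 44.4 at P15, and 54.7 and 56.8 against 44.8 and 44.4 at P30, a 2.26-fold difference at P0. The Hoxb6 genotypes overlapped at P15, with euploid higher again at P30. The one member counted as higher at P0 was Hoxa11os, on a probe set reading 8.7 and 6.0 in euploid and 11.1 and 32.1 in Ts1Cje, whose Ts1Cje arrays were far from each other. Next upward without overlap, but under 2-fold, were Six2 (0.79) and Hoxb1 (7.1 and 4.4 against 10.3 and 15.5, 0.75).

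Smaller differences in the same direction were seen in some other Hox genes. Without overlap at P0, Hoxa2 read 62.9 and 50.3 in euploid against 34.5 and 30.1 in Ts1Cje, Hoxb7 59.9 and 41.3 against 27.3 and 36.2, and Hoxc4 33.0 and 42.9 against 17.7 and 22.1. Hoxa6 (2 probe sets), Hoxb3, Hoxb8 (1 of 2 probe sets) and Hoxc5 were also lower in Ts1Cje without overlap, with differences of -0.89 to -0.58. Of the 40 Hox probe sets 11 were lower without overlap (27.5%), beside 16.6% of all probe sets, and 5 were higher (12.5%), beside 23.0%. Of the 60 other members 7 were lower (11.7%) and 16 higher (26.7%). The Hox probe sets, without the noncoding Hoxa11os, were also sorted by paralog group, the position of a gene within its cluster. The groups were split after seeing these values, so the split describes them and tests nothing. Groups 2 to 8 had 11 of 23 probe sets lower and 0 higher without overlap, with a median difference of -0.56. Group 1 and groups 9 to 13 had 0 of 15 lower and 4 higher, with a median of 0.17. All 15 of these lie under the signal filter, where the added 4.6 compresses differences, and groups 2 to 8 hold all 8 Hox probe sets past it. The bright probe sets of Hoxa4 (108.0 to 202.7), Hoxb8 (50.1 to 115.8) and Hoxd8 (23.9 to 76.6) overlapped between genotypes at P0.

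**Figure D4:**
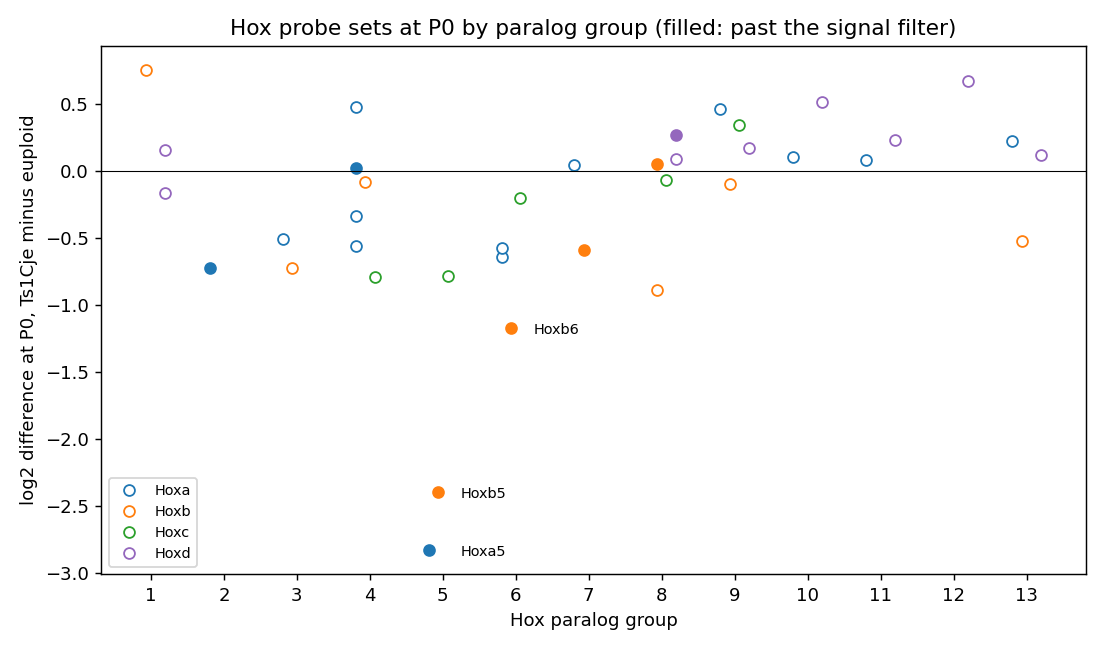
Ts1Cje minus euploid at P0, as a log2 difference (vertical axis), for 38 Hox probe sets by paralog group (horizontal axis) and cluster (colour), without the noncoding Hoxa11os. Filled points passed the signal filter. Hoxa5 (-2.83), Hoxb5 (-2.40) and Hoxb6 (-1.18) lie lowest.

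Both arrays of the euploid P0 pool were above the other 10 arrays for 10 of 40 Hox probe sets (25%: Hoxa2, Hoxa5, Hoxa6, Hoxb3, Hoxb5, Hoxb6, Hoxb7, Hoxb8, Hoxc4 and Hoxc5), for 2 of the 60 other members (3.33%: Meis3 and 1 Pbx3 probe set) and for 4.47% of all probe sets. At least 2-fold above the next pool were Hoxa5 and Hoxb5, beside 11 probe sets on the whole array (0.0886%). Hoxa5 passed from P0 to P15 (-2.02 ± 0.62, limma adjusted p = 0.0417) and from P0 to P30 (-1.99 ± 0.62, adjusted p = 0.0334), but without the euploid P0 pool the estimates were -0.73 and -0.70 (adjusted p = 0.338 and 0.312). The P15 call also ended without the euploid P15 pool (-0.76, adjusted p = 0.244) or hybridisation 2 (adjusted p = 0.0639), and was lost with no signal filter, a stricter one, quantile normalization or no trend. The P30 call was lost with no signal filter or no trend.

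Hoxa2 (chr6:52162417-52164831), the Hox gene expressed furthest forward in the hindbrain, fell from P0 to P15 (-1.10 ± 0.25, limma adjusted p = 0.0127). Its P15 arrays read 14.7 and 20.9 in euploid and 17.7 and 17.2 in Ts1Cje, and its P30 arrays 21.8 to 27.1, all below the P0 arrays of either genotype. The call ended without the euploid P0 pool (-0.77, adjusted p = 0.12), the euploid P15 pool (-0.89, adjusted p = 0.0734) or hybridisation 1 (-0.89, adjusted p = 0.0744). To P30 it gave -0.69 ± 0.25 (adjusted p = 0.0582), which passed without the euploid P15 pool (adjusted p = 0.0401), the Ts1Cje P0 pool (-1.02, adjusted p = 0.0334) or the Ts1Cje P15 pool (adjusted p = 0.0395).

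The other tested Hox genes did not pass from P0 to P15: Hoxb5 gave -0.90 ± 0.51 (limma adjusted p = 0.23), Hoxb6 -0.52 ± 0.29 (adjusted p = 0.219) and Hoxb7 -0.60 ± 0.31 (adjusted p = 0.19). Here the calls depended on which P0 pool was in the fit. Without the Ts1Cje P0 pool, Hoxb5 gave -2.08 (adjusted p = 0.00118) and Hoxb6 -1.05 (adjusted p = 0.0209), and without the euploid P0 pool they gave 0.28 and 0.019. Without the Ts1Cje P15 pool, Hoxb5, Hoxb6 and Hoxb7 passed at -1.66, -0.93 and -1.17, and Hoxb5 also passed without either P30 pool. From P0 to P30, Hoxb5 passed without the Ts1Cje P0 pool (-1.99, adjusted p = 0.000889) or the Ts1Cje P30 pool (-1.24, adjusted p = 0.0302).

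Beside the Hox difference at P0, the summed brainstem markers were 195.3 and 205.3 in the euploid pool and 221.8 to 280.2 in the Ts1Cje pool. Of the 7 genes, Slc6a4 (69.6 and 77.2 against 96.3 and 116.1), Th and Slc6a2 were higher in Ts1Cje without overlap, Isl1 was lower (7.8 and 5.2 against 3.2 and 2.6), and Slc18a3, Phox2a and Prph overlapped. Of the hindbrain patterning and retinoic acid genes, 22 of 30 listed were on the array. They summed to 863.0 and 900.9 in euploid and 738.1 and 786.0 in Ts1Cje. Their difference was mostly through Rxrb (306.8 and 372.9 against 240.3 and 269.4). Of the dimmer genes in this list Gbx2, an early factor of the anterior hindbrain, read 64.0 and 66.3 against 34.5 and 44.1. Crabp1 read 57.1 and 70.5 against 48.8 and 37.7. Egr2, a factor of hindbrain segments, was higher in Ts1Cje (12.1 and 21.4 against 26.2 and 35.2). Among the choroid plexus markers, Ttr, which codes for transthyretin, was lower in Ts1Cje (357.0 and 361.3 against 142.9 and 137.1), as was Folr1 (29.9 and 42.3 against 6.7 and 26.7). Kl was higher in Ts1Cje (1.4 and 1.5 against 3.3 and 1.8), and Aqp1 and Calml4 overlapped. These 5 genes on the array, of 9 listed, summed to 422.5 to 468.0 in the euploid P0 pool and 192.9 to 202.0 in the Ts1Cje P0 pool, mostly through Ttr. At P30 the same sum was 840.8 to 1148, where Hoxa5 read 10.4 to 30.5 and Hoxb5 31.9 to 47.2. Other marker sums at P0 were also higher in Ts1Cje without overlap. Meninges and connective tissue summed to 2817.8 to 2847.9 in euploid against 3814.8 to 4379.4, and skeletal muscle to 150.5 to 150.6 against 179.1 to 223.0. Midbrain and thalamus gave 835.2 to 922.8 against 923.8 to 942.4, and forebrain 45.4 to 52.2 against 53.4 to 55.8. The cerebellar sum overlapped. The part of any of these in the P0 difference was not tested, and with 1 pool per genotype and stage, pool and genotype cannot be told apart.

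The promoters of Hoxa5 and Hoxa2, the Hox genes of the HoxA cluster called between stages, are shown for their sequence context (RefSeq, GRCm38.p6, 250 bases before to 50 after the start). Hoxa5 lies at chr6:52204538-52204837 on the minus strand and Hoxa2 at chr6:52164782-52165081 on the minus strand. Capitals mark matches to TGATNNAT, a motif bound by PBX and HOX proteins together, and TGACAG, a motif of MEIS proteins, read on both strands.
Hoxa5: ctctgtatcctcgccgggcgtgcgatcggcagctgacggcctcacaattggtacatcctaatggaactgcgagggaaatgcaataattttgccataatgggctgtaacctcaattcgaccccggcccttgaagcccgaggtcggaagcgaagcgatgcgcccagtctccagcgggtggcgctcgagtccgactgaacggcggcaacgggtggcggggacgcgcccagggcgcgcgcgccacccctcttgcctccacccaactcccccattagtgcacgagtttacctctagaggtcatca
Hoxa2: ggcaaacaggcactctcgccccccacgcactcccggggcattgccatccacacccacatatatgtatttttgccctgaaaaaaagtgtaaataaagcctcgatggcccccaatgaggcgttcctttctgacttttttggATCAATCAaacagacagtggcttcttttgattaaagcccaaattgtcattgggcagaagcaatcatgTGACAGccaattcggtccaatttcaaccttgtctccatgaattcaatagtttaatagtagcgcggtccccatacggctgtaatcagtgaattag
The Hoxa2 window holds 1 match of each motif, and the Hoxa5 window holds neither of them. TGATNNAT occurs in 8.85% of all 32851 RefSeq windows and in 7.69% of the 65 windows of member genes, and TGACAG in 19.2% and 23.1%. The homeodomain core TAATTA occurs in 5.29% and 4.62%, and the POU octamer ATGCAAAT in 1.74% and 0.0%. Hoxb5, Pbx3 and En2 had no window in the table.

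At P15 the differences lay elsewhere. By the same count, 6 members were higher in the Ts1Cje pool (6.0%), beside 0.869% of all probe sets, and 0 were lower, beside 0.378%. With a pseudocount of 1 the members counted were 12, and with one of 16 they were 2, Dlx1 and Shox2. Dlx1, a factor of forebrain interneurons (chr2:71528113-71533981), read 77.5 and 64.9 in the Ts1Cje P15 pool and 0.5 and 0.9 in the euploid P15 pool. On the other arrays it read 5.0 and 2.4 in euploid and 1.8 and 3.1 in Ts1Cje at P0, and 0.5 and 0.5 in euploid and 1.0 and 1.0 in Ts1Cje at P30. The Ts1Cje P15 pool was the one pool with a signal above the low range. The difference from euploid was 3.83 on the log2(signal + 4.6) scale, a size that the added 4.6 sets, since the euploid arrays are at the bottom of the range. Dlx1 was the one member of 100 with both arrays of this pool highest (1.12% of all probe sets), and Dlx1 was also among the 3 probe sets of 12422 (0.0242%) that were at least 2-fold above the next pool there.

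Its cluster neighbour Dlx2 (chr2:71543408-71546754) read 11.2 and 5.9 in the Ts1Cje P15 pool and 1.3 and 0.5 in euploid, but also 7.4 and 3.8 in euploid and 6.8 and 2.4 in Ts1Cje at P0. Dlx5, on chromosome 6, read 12.5 and 12.2 against 1.9 and 1.6 at P15, and 10.1 and 14.7 in euploid and 7.0 and 3.8 in Ts1Cje at P0. Both are dim and overlapped the P0 arrays, so the P15 difference (2.35-fold and 2.67-fold) was one between a low signal and one near the bottom of the scale. The noncoding Dlx1as, which overlaps Dlx1, stayed between 1.1 and 5.2 on all arrays. Dlx6, next to Dlx5, stayed between 0.7 and 5.0. Downward without overlap, but under 2-fold, the largest differences at P15 were those of Nkx3-2 (12.8 and 6.1 in euploid, 2.4 and 2.2 in Ts1Cje, -0.98), Lhx5 (-0.64) and Msx2 (-0.59).

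The other 3 members were Shox2 (3.82-fold), Meis2 (3.59-fold) and Pou3f4 (2.21-fold), whose values are given above. All 3 were highest at P0, and for each of them the Ts1Cje P15 arrays lay between the P0 arrays and the euploid P15 arrays. Some brainstem markers moved with them. The brainstem sum was 99.0 and 116.3 in the Ts1Cje P15 pool and 49.3 and 61.7 in the euploid P15 pool. The forebrain sum, over 3 genes on the array of 10 listed, was 49.5 and 50.4 against 27.9 and 44.3, with Drd2 higher without overlap and Neurod6 and Tbr1 overlapping. Slc6a4 read 18.3 and 8.7 against 1.1 and 1.8, and Prph, a gene of peripherally projecting neurons, 19.4 and 13.6 against 1.7 and 5.5. Th, the gene of tyrosine hydroxylase, was also higher (63.0 and 65.8 against 21.1 and 25.5), and Slc6a2, the noradrenaline transporter gene of the same list, was lower (6.3 and 6.7 against 20.6 and 24.1). The midbrain and thalamus sum overlapped (576.5 to 637.0 against 544.4 to 675.7), and the cerebellar sum was lower in the Ts1Cje pool (15108 to 16499 against 17946 to 20106). Their part in the P15 differences was not tested.

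The promoters of Shox2 (chr3:66981722-66982021, minus strand), Lhx9 (chr1:138842395-138842694, minus strand) and Dlx1 (chr2:71529195-71529494, plus strand) are shown because the signals of these genes were high at P0, or for Dlx1 in the Ts1Cje P15 pool, and low elsewhere, with the same source, window and capitals.
Shox2: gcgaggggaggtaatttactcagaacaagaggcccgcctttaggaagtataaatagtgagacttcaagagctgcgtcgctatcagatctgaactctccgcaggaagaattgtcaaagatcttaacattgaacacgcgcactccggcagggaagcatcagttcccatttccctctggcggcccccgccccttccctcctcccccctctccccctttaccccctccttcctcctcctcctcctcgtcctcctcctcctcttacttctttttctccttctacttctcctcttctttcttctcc
Lhx9: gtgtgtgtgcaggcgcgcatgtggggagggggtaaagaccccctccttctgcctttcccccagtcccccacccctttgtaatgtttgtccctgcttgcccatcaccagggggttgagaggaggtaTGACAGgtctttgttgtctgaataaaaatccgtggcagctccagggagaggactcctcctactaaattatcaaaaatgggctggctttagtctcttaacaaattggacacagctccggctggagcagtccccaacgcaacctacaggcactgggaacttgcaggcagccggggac
Dlx1: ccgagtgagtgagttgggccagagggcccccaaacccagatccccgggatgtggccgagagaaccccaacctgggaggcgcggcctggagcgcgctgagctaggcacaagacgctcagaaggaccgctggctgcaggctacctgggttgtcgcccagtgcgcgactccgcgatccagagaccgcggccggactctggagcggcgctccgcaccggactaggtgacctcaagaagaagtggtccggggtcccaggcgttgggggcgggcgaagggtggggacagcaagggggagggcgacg
The Lhx9 and Dlx1 windows lie inside the gene spans given above, away from the 5' ends of those spans. They are each the window of 1 annotated start. The Lhx9 window holds 1 match to TGACAG. The Shox2 and Dlx1 windows hold no match to any of the 4 motifs searched.

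At P30, 3 members were lower in Ts1Cje by the same count (3.0%), beside 0.58% of all probe sets, and 0 were higher, beside 0.942%. With a pseudocount of 1 the members counted were 5, and with one of 16 Nkx1-2 alone. Nkx1-2 read 25.8 and 33.3 in euploid and 9.0 and 4.6 in Ts1Cje (3.03-fold), Dlx4 23.1 and 29.4 against 8.6 and 7.5 (2.43-fold), and Hoxa5 as above (2.11-fold). Nkx1-2 and Dlx4 are dim probe sets that reached 38.5 and 22.8 on single arrays of P15, with the other array of that pool at 11.5 and 9.2, so arrays of 1 pool could also lie far apart. Without overlap but under 2-fold, the largest differences upward were those of Dlx3 (7.9 and 11.0 in euploid, 20.0 and 18.3 in Ts1Cje), Six2 and Lhx8 (2.3 and 2.1 against 8.6 and 4.8), at 0.77, 0.73 and 0.71 on the log2 scale.

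**Figure D5:**
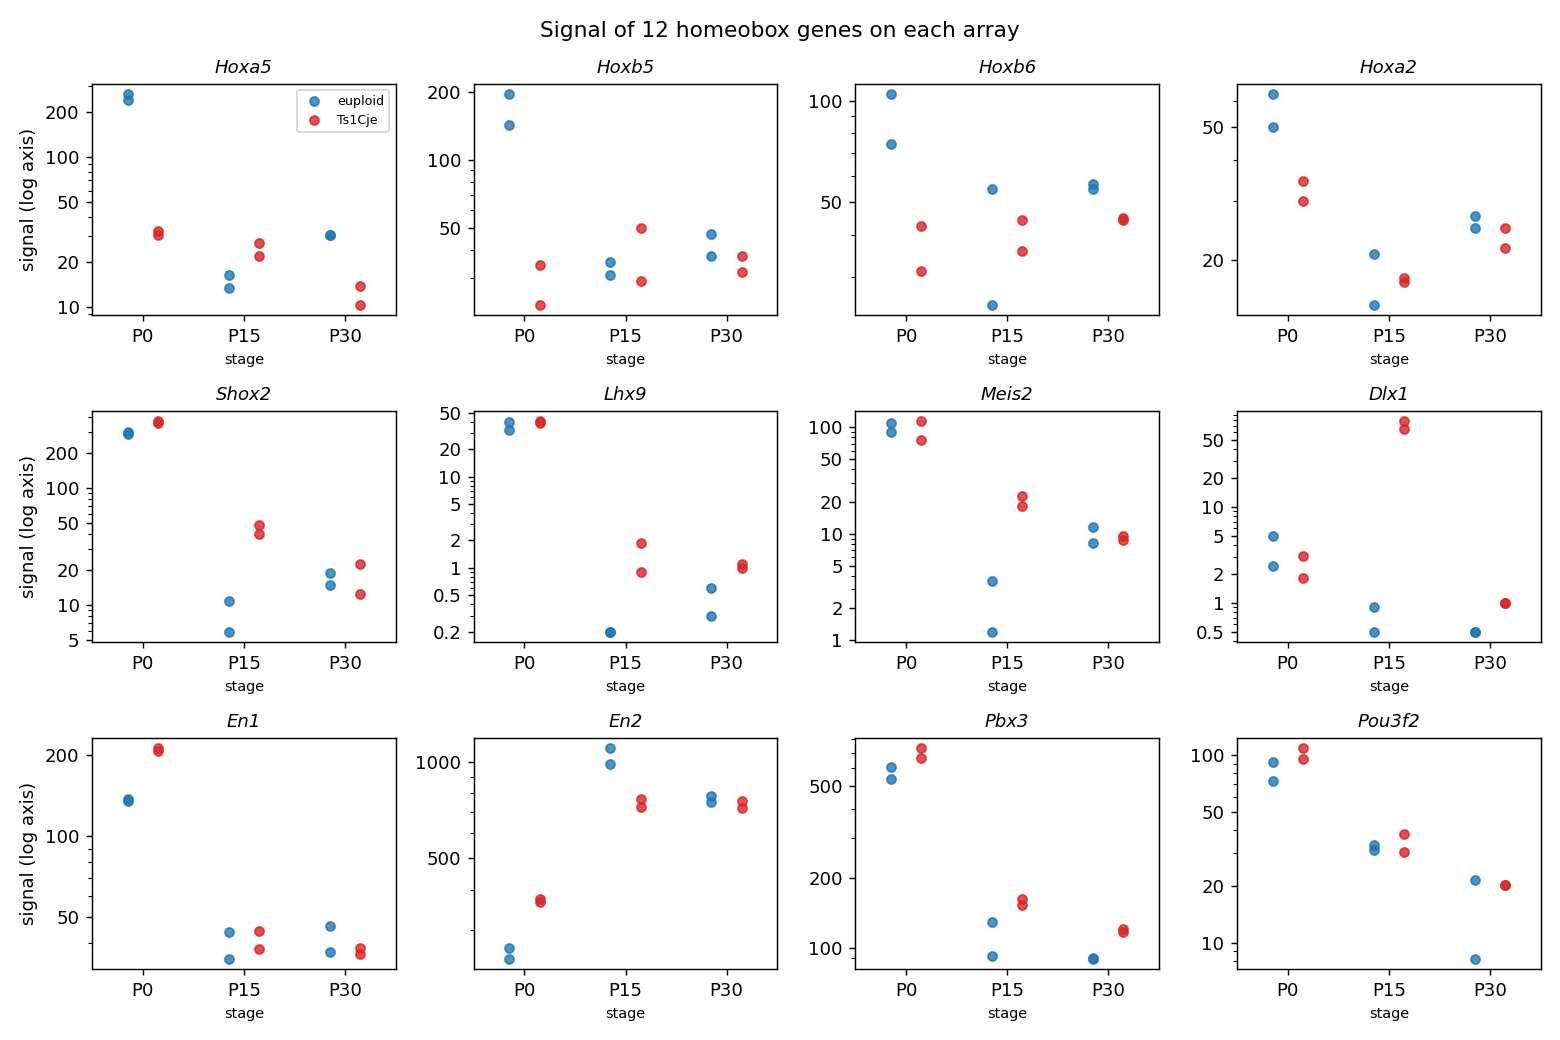
Signal of 12 homeobox genes on each array (vertical log axis) by stage (horizontal axis), with euploid arrays in blue and Ts1Cje arrays in red; each point is 1 array and each pool has 2. Hoxa5 and Hoxb5 are high in the euploid P0 pool alone, Dlx1 in the Ts1Cje P15 pool alone, and Shox2, Lhx9, Meis2, En1, Pbx3 and Pou3f2 on all P0 arrays, while En2 is lowest at P0.

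Homeobox genes outside the name rule and the pathways around them gave a mixed picture. Of 87 other homeobox genes listed, 52 were on the array and 15 were tested. From P0 to P15, 3 rose, namely Hopx (2.67 ± 0.14, limma adjusted p = 8.49e-06), an atypical homeodomain protein of progenitors and glia, Pax6 (1.49 ± 0.27, adjusted p = 0.00443), a factor of cerebellar granule cells, and Uncx (1.40 ± 0.35, adjusted p = 0.018). Zfhx3 fell (-2.13 ± 0.26, adjusted p = 0.000632), and the median of the 15 was -0.018. Of 30 hindbrain patterning and retinoic acid genes listed, 22 were on the array and 5 were tested. Among these Aldh1a1, which makes retinoic acid, rose (1.84 ± 0.13, adjusted p = 5.07e-05), and Crabp1, which binds it, fell (-2.62 ± 0.44, adjusted p = 0.00302). Of the 40 cerebellar lineage factors listed, 21 were tested, of which 10 rose and 5 fell. None of these lists had a call for genotype (0 of 15, 0 of 5 and 0 of 21).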

How the data were processed

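RNA of 6 cerebellum pools was measured on 12 Affymetrix arrays of 12488 probe sets. The deposited values are linear signal intensities that the authors computed with MAS5, per the submitters' processing notes, but the sources used here do not give its settings. The values show that each array had been scaled to a trimmed mean of 100.05 to 100.06. Detection calls were not analysed here.

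Values were taken to log2(signal + 4.6), 4.6 being the 20th percentile of all values, so fold changes understate those of dim probe sets. Leaving out 66 control probe sets and those whose mean fell short of 20.1 (the 40th percentile) left 7453. Both arrays of a pool were averaged, and limma 3.58.1 in R 4.3.3 (eBayes with trend, two-sided) was fitted with genotype and stage, leaving 2 residual degrees of freedom (prior 6.39), or with a genotype by day term, leaving 1 (prior 9.51). Benjamini-Hochberg adjustment covered every tested probe set, and 0.05 was the threshold. The p-values reflect only how these pools vary, and so few arrays limit the precision. The script was tested on simulated data. Figures used matplotlib 3.10.9 in python 3.11.15.

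Symbols came from the platform annotation, and all 80 genes matched the RefSeq table (GRCm38.p6), which gave coordinates and promoters. Another 3 probe sets with several Hox symbols were left out. The brightest probe set stood for a gene in counts of genes. Named with values were members past the threshold, the 5 with the smallest p for genotype, the 3 largest non-overlapping differences in each direction within a stage, bright members and relatives of these. The members and lists were chosen with earlier results of these data known. Alternatives were other pseudocounts, filters and scalings, no trend, a block, and leaving out each array number or pool.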

Additional observations from a re-analysis of the deposited data

Results flagged for a closer look

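Some members differed between genotypes in opposite directions at different stages, with no overlap of the 4 arrays at each stage named. The list is not complete: Msx2 (0.54 at P0, -0.59 at P15) and Lhx8 (-0.48 at P15, 0.71 at P30) also reversed. The share of such reversals over all probe sets is not given here. Differences without overlap were common at P0, where 23.0% of all probe sets were higher and 16.6% lower in Ts1Cje. With 1 pool per genotype and stage these reversals were not tested. The values are log2 differences, Ts1Cje minus euploid. At P0, P15 and P30 in turn, Hoxa5 gave -2.83, 0.57 and -1.08. Hoxb7 gave -0.59 at P0 and 0.72 at P15. Lhx5 gave 0.75 at birth, -0.64 at P15 and 0.31 at P30. En2 gave 0.54 at P0 and -0.48 at P15, and Pou3f3 gave 0.32 and -0.33 at the same stages. Dlx5 gave -0.77 at P0 and 1.42 at P15, and Pou6f1 gave -0.24 and 0.33. Pou3f4 gave 1.14 at P15 and -0.59 at P30. One Pbx3 probe set gave -0.04 at P0, 0.49 at P15 and 0.28 at P30.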

How the results depend on the processing

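The number of homeobox probe sets called between P0 and P15 was 14, and it became 22 with no signal filter and 7 of 12 tested with a stricter one (mean signal of 58.8). Between P0 and P30 it was 13, and 8 with the stricter filter. Leaving out 1 pool gave 11 (without euploid P0) to 17 (without Ts1Cje P15) and 12 to 16. With the hybridisation number as a replicate block both counts were 15, though the numbers do not pair the pools (correlations of same-numbered deviations from -0.124 to 0.354). Between P15 and P30, 0 became 1 after quantile normalization and under the block (Pou3f2 in both), and leaving out 1 array number or pool gave 0 to 1. For genotype the count was 0 under every alternative run. For the genotype by day term 0 became 1, Hoxb5, without hybridisation 1. Values without either hybridisation number ran from 0 to 1, and no pool was left out for this term. Within stages, counts of 4 at P0, 6 at P15 and 3 at P30 became 10, 12 and 5 with a pseudocount of 1 and 2, 2 and 1 with one of 16. Leaving out a hybridisation, which by construction loosens the overlap condition, gave 10 to 12, 9 to 12 and 8. The shares of all probe sets under these within-stage alternatives are not given here, so these counts cannot be set against the array. Reversed signs, none past the threshold, were Lhx5 from P0 to P15 without Ts1Cje P0 (0.13) or Ts1Cje P15 (0.25) and from P15 to P30 without euploid P15 (0.087), Shox2 from P15 to P30 without Ts1Cje P15 (0.67) or Ts1Cje P30 (0.35), and without euploid P0 Hoxb5 (0.28 to P15 and 0.37 to P30) and Hoxb6 (0.019 to P15). Calls that appeared without 1 pool ran up to -0.92 for Lhx5 (P15 against P0, without euploid P15), -1.08 for Lhx5 (P30 against P15, without Ts1Cje P15), -1.10 for Shox2 (P30 against P15, without euploid P15) and, without Ts1Cje P0, -2.08 (to P15) and -1.99 (to P30) for Hoxb5 and -1.05 for Hoxb6 (to P15). Where no construction is named, the cause was not tested. Calls gained under the block were Meis3 to P15 and Hoxa2 and Lhx5 to P30. Meis1 and Hoxa2 to P30 also passed with a pseudocount of 16, after quantile normalization and without the trend. Signal over background limits the 70 dim probe sets, whose order at low signal is uncertain.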
